A study of Mus musculus with 6 samples.

Results

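The 38 genes described here encode the synaptic vesicle and its release machinery. They were listed by gene name from what their products do at the presynaptic terminal, with earlier results of these data known, and they make up 38 of the 54532 gene identifiers in the count tables. The rule for membership uses no measured value. Their mRNA was measured by RNA-seq of polyA RNA from whole brains of mice at postnatal day 14 on the C57BL/6J background, with 3 control and 3 mutant brains. Control mice carried 1 floxed allele together with the Cre transgene (Mphosph8fl/+ Nestin-Cre+), and mutant mice carried the floxed allele on both chromosomes (Mphosph8fl/fl Nestin-Cre+). All 6 mice therefore carried Nestin-Cre, and the controls were heterozygous and not wild type. Nestin-Cre acts in neural progenitors, from which neurons, astrocytes and oligodendrocytes arise, whereas microglia and vessel cells come from other lineages and keep the intact gene. Mphosph8 encodes MPP8, the chromodomain subunit of the HUSH complex, which silences genes and repeats within heterochromatin marked by H3K9me3.

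A nerve terminal fills small vesicles with transmitter, docks them at a protein scaffold called the active zone, primes them, and fuses them with the plasma membrane when calcium enters. Transporters load the vesicle, and synaptophysin and SV2 proteins span its membrane. Synapsins tether it in a reserve pool. RIM, Bassoon, Piccolo and ELKS proteins build the active zone, Munc13 proteins prime the SNARE proteins, complexins hold the primed SNARE complex, synaptotagmins sense calcium, and dynamin and its partners retrieve the membrane afterwards. At the second postnatal week the rodent brain is in its main period of synapse formation. The comparison below addresses the mRNA level of the presynaptic parts list.

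The libraries held between 12956880 and 15223424 counts assigned to genes. Mphosph8 fell in the mutant brains, from 55.8, 48.6 and 70.7 CPM (counts per 1e+06 counts, scaled by TMM) in controls 1 to 3 to 33.1, 27.2 and 26.5 CPM in mutants 1 to 3 (log2 fold change -1.02 ± 0.12 SE, edgeR adjusted p = 0.000157). The counts cover the whole gene and all cells of the brain, also those outside the reach of Nestin-Cre. Control 3 stood apart in sex-linked genes, with 3641 counts in 4 Y-linked genes and 27 in Xist, whereas the other 5 libraries had at most 1 Y-linked count and at least 11130 Xist counts. Of the 38 genes, Syn1 and Syp lie on the X chromosome. Without control 3 their log2 fold changes were -0.15 and -0.08. In bulk brain, fewer nerve cells of a type and less mRNA per cell cannot be told apart.

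None of the 38 genes passed an adjusted p of 0.05 in either direction (edgeR quasi-likelihood test, Benjamini-Hochberg over 16731 tested genes). All 38 passed the filter on low counts, and the smallest adjusted p among them was 0.156. By the same rule 0.532% of all tested genes were higher and 0.0956% were lower in the mutant, 0.628% in either direction, and with a 2-fold limit added the share was 0.359%. DESeq2 and limma-voom also called 0 of the 38. At an unadjusted p under 0.05 there were 2 higher genes, Unc13c and Rims1, and 2 lower genes, Sv2c and Sypl, which is 5.26% of the 38 in each direction. Over all tested genes those shares were 4.09% higher and 2.41% lower, together 6.51%.

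The estimates were small as well as short of the threshold. The log2 fold changes of mutant over control ran from -0.28 for Sv2c to 0.32 for Unc13c, with a median of -0.0139, beside -0.0073 over all tested genes, and the difference was not tested. Without mutant 1 these medians were -0.0579 and -0.0037. The estimate was positive for 17 genes and negative for 21, or 55.3% negative against 52.4% of all tested genes. It lay within 0.1 of 0 for 26 of the 38 and within 0.2 for 34. The 95% interval of every one of the 38 lay within 0.5 log2 units of 0, a 1.41-fold change either way, and 34 of the intervals covered 0. The distance from an estimate to the end of its interval had a median of 0.19, from 0.16 for Rims2 to 0.41 for Slc17a8, the gene with the fewest reads (60 to 99 per library).

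**Figure D1:**
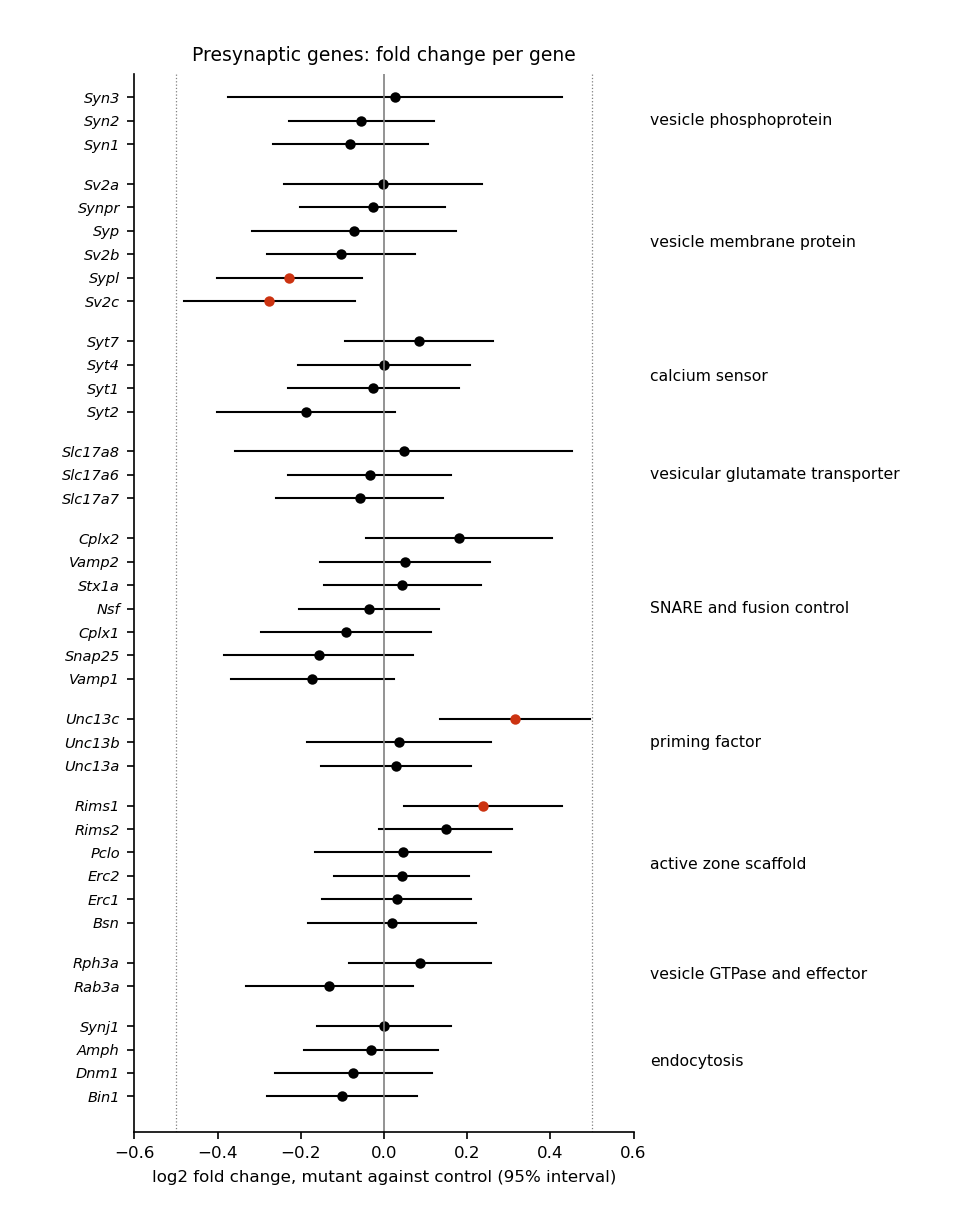
Log2 fold change of mutant over control (x axis) for each of the 38 genes, grouped by role, with 95% intervals from the edgeR fit of 3 against 3 brains. No gene passed an adjusted p of 0.05, and every interval stayed inside 0.5 log2 units of 0.

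The largest positive estimate belonged to Unc13c (ENSMUSG00000062151, chromosome 9, 73479422 to 73968966, minus strand, GRCm38), which encodes Munc13-3, a priming factor best known from the cerebellum. Its level was 167, 187 and 183 CPM in the controls and 239.6, 202 and 227 CPM in the mutants. The mutant libraries were all above the controls, yet the lowest mutant stood only a little over the highest control. Mutant over control gave 0.32 ± 0.09 SE on the log2 scale (95% interval 0.14 to 0.50, edgeR adjusted p = 0.156). Over the other ways of processing and the left-out libraries, the estimate ran from 0.26 to 0.38 and the adjusted p from 0.0504 to 0.595.

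Unc13a (ENSMUSG00000034799, chromosome 8, 71624417 to 71671757, minus strand) encodes Munc13-1, the main priming factor of forebrain excitatory terminals. It was at 296, 332 and 350.4 CPM in the controls and 327, 331 and 339 CPM in the mutants, all 3 mutants inside the control range (log2 fold change 0.03 ± 0.09 SE). Unc13b, encoding Munc13-2, was far lower and did not separate the groups, at 53.6 ± 6.07 CPM in controls against 54.9 ± 7.34 CPM in mutants (SD, n = 3 each). Per exonic length, Unc13c made up 42.0 ± 1.16% of the summed RPKM (CPM per kilobase of exon) of the 3 Munc13 genes in controls and 46.8 ± 2.48% in mutants (SD, n = 3 each). The Unc13a share ran from 52.6 to 54.2% in controls and from 46.9 to 50.7% in mutants. These shares, like those of the other families below, are a description and were not tested.

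The start regions of Unc13a and Unc13c, the 2 Munc13 genes with the higher RPKM, and of Syn1, the widely used marker gene of nerve terminals, are shown to compare their sequence. Each window is from RefSeq (GRCm38.p6), covers 250 bases before and 50 after an annotated start, and reads 5′ to 3′ on the gene's strand. A RefSeq start can differ from that of the counted gene model. The Unc13c window lies wholly outside the counted gene, which reaches to 73968966. Capitals mark the letters of 6 motifs searched on both strands, which are TTCAGCACC and GGACAGC from the ends of the RE1 element bound by the neuronal repressor REST, TGACGTCA (the cAMP response element), the palindromic NRF1 site, TATAAA and GGGCGG. The Syn1 window lies at chrX:20920869-20921168, that of Unc13a at chr8:71671708-71672007 and that of Unc13c at chr9:73968988-73969287, all on the minus strand.
Syn1: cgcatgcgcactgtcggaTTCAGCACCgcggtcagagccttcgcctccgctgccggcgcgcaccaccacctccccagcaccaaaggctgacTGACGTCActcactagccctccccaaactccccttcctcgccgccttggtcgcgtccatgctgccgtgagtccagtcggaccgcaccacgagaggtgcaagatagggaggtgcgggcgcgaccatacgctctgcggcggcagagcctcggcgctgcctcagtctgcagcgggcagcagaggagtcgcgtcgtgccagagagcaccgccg
Unc13a: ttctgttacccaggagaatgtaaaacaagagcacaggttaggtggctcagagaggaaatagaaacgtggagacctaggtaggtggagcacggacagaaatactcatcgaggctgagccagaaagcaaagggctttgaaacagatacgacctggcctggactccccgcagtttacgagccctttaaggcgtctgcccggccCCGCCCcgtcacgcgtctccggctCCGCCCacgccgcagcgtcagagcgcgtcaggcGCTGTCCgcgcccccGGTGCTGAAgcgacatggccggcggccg
Unc13c: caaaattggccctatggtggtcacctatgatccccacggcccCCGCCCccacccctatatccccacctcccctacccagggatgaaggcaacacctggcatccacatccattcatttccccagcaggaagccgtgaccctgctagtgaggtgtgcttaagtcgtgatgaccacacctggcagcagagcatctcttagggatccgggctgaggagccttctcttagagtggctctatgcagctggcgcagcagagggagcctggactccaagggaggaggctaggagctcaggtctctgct
Syn1 held TTCAGCACC at position -232 and TGACGTCA at position -159 from the start. Unc13a held the letters of both RE1 ends on the minus strand of the window, the left part at position 23 and the right part at position 8. Unc13c held 1 GGGCGG on its minus strand and no other motif of the 6.

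RefSeq windows were at hand for 31 of the 38 genes, 45 windows in all, and there was no entry for Syn3, Syt4, Syt7, Snap25, Vamp2, Rims2 and Bin1. Their median GC content was 62.0%, against 52.7% over 32851 windows of all genes, and their median number of CpG dinucleotides was 18 against 7. GGGCGG occurred in 27 of the 45 windows, 60.0% against 35.7% of all windows. TATAAA occurred in 2 windows, both of Sv2b, which is 4.44% against 13.6% of all. TTCAGCACC occurred in 2 of the 45, those of Syn1 and Unc13a, which is 4.44% against 0.371%. GGACAGC occurred in 4 windows of Sypl, Unc13a and Rph3a, which is 8.89% against 6.56%. TGACGTCA occurred in Syn1 (2.22% against 1.79%) and the NRF1 site in Bsn (2.22% against 0.971%). A match describes letters in the window and is not a mapped binding site. The Cplx2 window (chromosome 13, 54302306 to 54302605) lies outside its counted gene, which begins at 54371349. The Rims1 window (chromosome 1, 22806109 to 22806408) also lies outside its counted gene, which reaches to 22805994. So do the first windows of Syt2 (chromosome 1, 134646362 to 134646661) and Slc17a6 (chromosome 7, 51621580 to 51621879).

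Among the scaffold genes of the active zone, Rims1 and Rims2 had the largest estimates. Both encode RIM proteins, which bind Rab3 on the vesicle and tether calcium channels. Rims1 (ENSMUSG00000041670, chromosome 1, 22286251 to 22805994) was at 228, 219 and 212 CPM in the controls and at 239.6, 242 and 294 CPM in the mutants. The mutants were all above the controls and mutant 3 was well above the rest, with a log2 fold change of 0.24 ± 0.09 SE (95% interval 0.05 to 0.43, edgeR adjusted p = 0.54). Over the alternatives its estimate ran from 0.13, without mutant 3, to 0.29 and its adjusted p from 0.169 to 0.999. Rims2 (ENSMUSG00000037386, chromosome 15, 39198261 to 39684372) was at 109, 110.1 and 108 CPM in the controls and at 114, 123 and 126 CPM in the mutants. Again the groups did not overlap, and the control libraries lay close together, with a log2 fold change of 0.15 ± 0.08 SE (95% interval -0.01 to 0.31, edgeR adjusted p = 0.804). The RIM1 share of the summed RPKM of both RIM genes was 73.9 ± 0.624% in controls and 75.004 ± 1.56% in mutants (SD, n = 3 each).

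The giant scaffold proteins Bassoon and Piccolo (Bsn, Pclo) and the ELKS proteins (Erc1, Erc2) gave log2 fold changes between 0.02 and 0.05. Bsn varied more between control brains than between genotypes, at 216, 279 and 232 CPM in controls and 259.5, 227 and 250.5 CPM in mutants. All 6 scaffold genes and all 3 Munc13 genes had positive estimates, with a median of 0.04 in each group. However, leaving out a single library turned Unc13a, Unc13b, Bsn, Pclo and Erc1 negative, and 1 gene of each group was past an unadjusted p of 0.05.

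Among proteins of the vesicle membrane, Sv2c and Sypl had the most negative estimates. Sv2c (ENSMUSG00000051111, chromosome 13, 95954594 to 96132577) encodes the SV2 isoform typical of the basal ganglia and a receptor for botulinum neurotoxin. It was at 72.2, 78.4 and 83.8 CPM in the controls and at 75.3, 61.1 and 57.5 CPM in the mutants. Mutant 1 lay inside the control range and the other 2 mutants below it, with a log2 fold change of -0.28 ± 0.10 SE (95% interval -0.48 to -0.07, edgeR adjusted p = 0.459). Without mutant 1 the log2 fold change of Sv2c was -0.40 and the edgeR adjusted p 0.0242, and over all alternatives the adjusted p ran from 0.0242 to 0.999. Sypl (ENSMUSG00000020570, chromosome 12, 32953891 to 32979860) encodes synaptophysin-like protein, a relative of synaptophysin that is also made in many tissues outside the brain. It was at 69.1, 66.4 and 72.6 CPM in the controls and 59.0, 63.7 and 55.0 CPM in the mutants. The mutant libraries were all below the controls, with a log2 fold change of -0.23 ± 0.08 SE (95% interval -0.40 to -0.05, edgeR adjusted p = 0.487).

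Synaptophysin itself (Syp), the most used marker of presynaptic terminals, was at 1681, 1489.5 and 1557 CPM in the controls and at 1763, 1478 and 1258 CPM in the mutants. Its highest and its lowest value both came from mutant brains, so the groups overlapped fully (log2 fold change -0.07 ± 0.12 SE, 95% interval -0.32 to 0.17). Sv2a, which encodes the receptor of the antiepileptic drug levetiracetam, had nearly equal means, 620.2 ± 17.2 CPM in controls and 619 ± 119 CPM in mutants (SD, n = 3 each). The wider mutant spread came from mutant 1 at 757 CPM, with 555 and 547 CPM in the other mutants. Sv2b and Synpr, encoding SV2B and synaptoporin, had log2 fold changes of -0.10 and -0.03, that of Sv2b being -0.18 without mutant 1 and -0.07 without mutants 2 or 3. All 6 membrane genes had negative estimates with a median of -0.09, although Syp, Sv2a and Synpr turned positive when 1 library was left out and Sv2a also with size factors of the DESeq2 type. The Sv2c share of the summed RPKM of the SV2 genes was 4.28 to 4.98% in controls and 3.85 to 4.14% in mutants.

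The counts of genes whose libraries did not overlap between genotypes were 4 with all mutants higher (Unc13c, Rims1, Rims2 and Rph3a) and 1 with all mutants lower (Sypl). This is 10.5% and 2.63% of the 38, beside 6.23% and 5.42% of all tested genes. The other 33 genes overlapped. Rph3a, encoding rabphilin, an effector of Rab3, was at 386, 381 and 374 CPM in controls and 408, 389 and 414 CPM in mutants, and its log2 fold change was only 0.09 ± 0.08 SE (edgeR adjusted p = 0.94). Its partner Rab3a, the main GTPase of the synaptic vesicle, overlapped between groups at 344 ± 41.5 CPM in controls against 314 ± 19.8 CPM in mutants (SD, n = 3 each). The log2 fold change of Rab3a was -0.13, and it was -0.04 without control 1, -0.09 without mutant 1 and -0.21 without control 3.

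**Figure D2:**
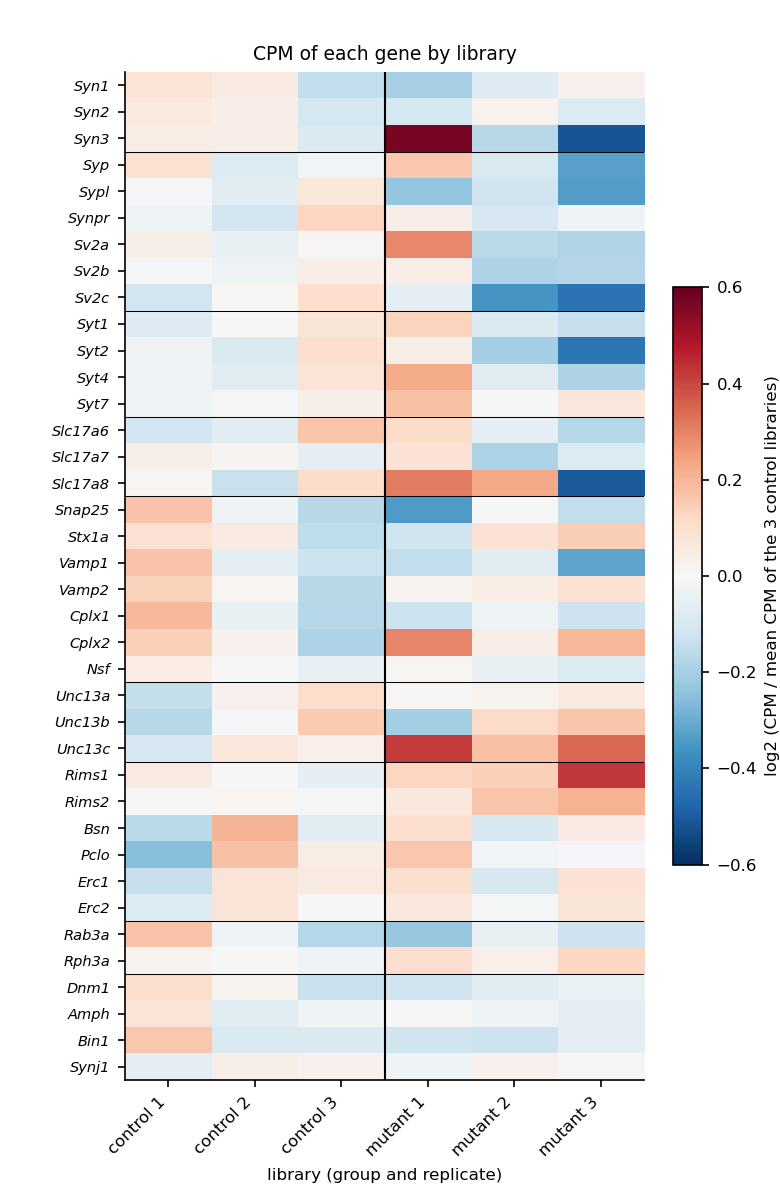
Log2 ratio of each gene's CPM to the control mean (color) in each of the 6 libraries (columns), with the 38 genes in rows by role. Mutant 1 was the highest library for Sv2a, Syt4, Syp and Syn3, and the genotypes separated for only 5 of the 38 genes.

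The SNARE genes supply the core of the fusion machine. Snap25 was at 764, 668 and 605 CPM in the controls and at 536, 678 and 612 CPM in the mutants. The lowest value came from mutant 1 and the other mutants lay within the control range, with a log2 fold change of -0.16 ± 0.11 SE (95% interval -0.38 to 0.07, edgeR adjusted p = 0.904). The Snap25 estimate was -0.07 without control 1 and -0.07 without mutant 1, and -0.24 without mutant 2. Stx1a, encoding syntaxin 1A on the plasma membrane, was at 137, 134 and 116 CPM in controls and 118, 137 and 143 CPM in mutants, an overlap over nearly the whole range (log2 fold change 0.04 ± 0.09 SE). Vamp2, the main vesicle SNARE of the forebrain, was at 927, 848 and 749 CPM in controls and 855, 869 and 892 CPM in mutants, so that all mutants lay inside the control range (log2 fold change 0.05 ± 0.10 SE). Vamp1, the vesicle SNARE prominent in brainstem and spinal cord, was at 214, 182 and 174 CPM in controls and 172, 182 and 153 CPM in mutants. Control 1 was above and mutant 3 below the rest, with a log2 fold change of -0.17 ± 0.09 SE (95% interval -0.37 to 0.02, edgeR adjusted p = 0.838). The Vamp1 estimate was -0.08 without control 1 and -0.11 without mutant 3.

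The complexins, small proteins that bind the assembled SNARE complex, had estimates of opposite sign with all libraries, although Cplx1 turned positive (0.02) without control 1. Cplx2 was at 1151, 1059 and 915 CPM in the controls and 1276, 1071 and 1195 CPM in the mutants. Mutant 2 lay inside the control range, and the log2 fold change was 0.18 ± 0.11 SE (95% interval -0.04 to 0.40, edgeR adjusted p = 0.875). It was 0.10 without control 3 and 0.12 without mutant 1. Cplx1 had a log2 fold change of -0.09 (423 ± 55.7 CPM in controls and 397 ± 16.4 CPM in mutants, SD, n = 3 each). The Cplx1 share of the summed RPKM of Cplx1 and Cplx2 was 46.5 to 48.6% in controls and 40.6 to 46.6% in mutants, which overlapped through mutant 2. Nsf, encoding the ATPase that takes spent SNARE complexes apart, had a log2 fold change of -0.04.

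Of the listed synaptotagmins, Syt1, the fast calcium sensor of forebrain release, was at 768, 812 and 854 CPM in controls and 889.8, 763 and 738 CPM in mutants. Mutant 1 was above and the other mutants below all controls, with a log2 fold change of -0.03 ± 0.10 SE. Syt2, the fast sensor of brainstem and many cerebellar synapses, was at 194, 185 and 211 CPM in controls and 202, 171 and 146 CPM in mutants. Mutant 1 was again inside the control range and the other mutants below it (log2 fold change -0.19 ± 0.10 SE, 95% interval -0.40 to 0.03, edgeR adjusted p = 0.838). Without mutant 1 the Syt2 estimate was -0.31 (edgeR adjusted p = 0.125) and without mutant 3 it was -0.08, while the adjusted p over left-out libraries ran from 0.125 to 0.999. Syt4 and Syt7 gave log2 fold changes of 0.00 and 0.08, and that of Syt7 was 0.04 without mutant 1.

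The vesicular glutamate transporters load excitatory vesicles and mark different projection systems, VGLUT1 (Slc17a7) mainly cortex, hippocampus and cerebellar granule cells, and VGLUT2 (Slc17a6) mainly thalamus and brainstem. Slc17a7 was at 826, 815 and 775 CPM in the controls and 855, 706 and 761 CPM in the mutants, and the groups overlapped (log2 fold change -0.06 ± 0.10 SE, 95% interval -0.26 to 0.14). Slc17a6 was at 114, 118 and 139 CPM in controls and 134, 119 and 109.6 CPM in mutants, and here too the groups overlapped (log2 fold change -0.03 ± 0.09 SE, 95% interval -0.23 to 0.16). Slc17a8 (VGLUT3) was low, at 6.19 ± 0.524 CPM in controls against 6.43 ± 1.8 CPM in mutants (SD, n = 3 each). Of the RPKM summed over the transporters, VGLUT1 had 84.1 to 87.2% in controls and 84.7 to 86.9% in mutants, and VGLUT2 had 12.03 to 15.03% and 12.5 to 14.3%. Both mutant ranges lay inside the control ranges.

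Synapsin I (Syn1, chromosome X, 20860511 to 20921004) was at 271, 265 and 230.3 CPM in controls and 223, 242 and 260.0 CPM in mutants. The groups overlapped, with a log2 fold change of -0.08 ± 0.09 SE (95% interval -0.27 to 0.11). Syn2 had a log2 fold change of -0.05. Syn3, chosen for mention after its values were seen, was the most uneven gene, at 20.5 CPM in mutant 1 beside 12.3 and 9.67 CPM in the other mutants and 13.0 to 14.3 CPM in controls. Leaving out 1 library moved Syn1 between -0.03 and -0.15 and Syn2 between -0.025 and -0.1037. Syn1 made up 63.99 to 65.06% of the summed synapsin RPKM in controls and 62.8 to 66.5% in mutants.

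In the endocytic group, Dnm1, the GTPase that pinches the retrieved vesicle from the membrane, was at 561, 530.5 and 476 CPM in controls and 482, 500.0 and 508 CPM in mutants. The mutants lay inside the control range (log2 fold change -0.07 ± 0.09 SE, between -0.02 without control 1 and -0.14 without control 3). Amph, Bin1 and Synj1, encoding amphiphysin, its relative BIN1 and synaptojanin 1, had log2 fold changes of -0.03, -0.10 and 0.00, that of Bin1 being -0.01 without control 1. All 4 estimates of the group were at or below 0, and those of Amph and Synj1 changed sign when 1 library was left out.

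**Figure D3:**
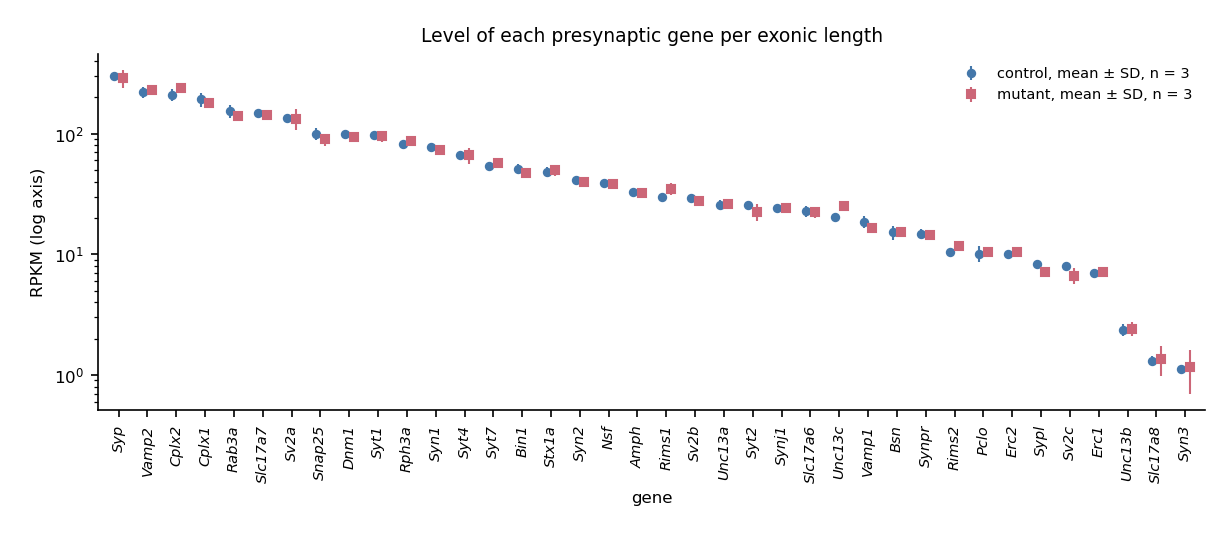
Control and mutant level in RPKM (log axis) of the 38 genes in order of control mean. Points are the mean of each genotype and bars are the SD between its libraries. Mean levels ran from 302 RPKM for Syp to 1.13 RPKM for Syn3 in controls. Single libraries, which are not drawn, overlapped between genotypes for 33 of the 38 genes.

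The levels of the 38 genes differed far more among genes than between genotypes. In RPKM, the control mean was 302 ± 18.6 for Syp, 221 ± 23.4 for Vamp2, 211 ± 24.2 for Cplx2, 193 ± 25.4 for Cplx1, 155 ± 18.7 for Rab3a and 149 ± 5.01 for Slc17a7 (SD, n = 3 each). At the other end were Erc1 at 6.99 ± 0.559, Unc13b at 2.36 ± 0.267, Slc17a8 at 1.31 ± 0.111 and Syn3 at 1.13 ± 0.0577 RPKM. In this order, 22 of the 37 neighboring pairs were closer to each other than the sum of their SDs, including Vamp2 with Cplx2 and Cplx2 with Cplx1. Of the 38 genes, 21 stood at or above the 90th percentile of control RPKM over all tested genes and 16 at or above the 95th. Only Unc13b, Slc17a8 and Syn3 were below the median gene. RPKM used all annotated exonic bases, so a gene with long, rarely used exons is understated. Exons of genes on the opposite strand covered 16.8% of the exonic bases of Syp, 14.5% of Syt4, 14.1% of Syn3 and 11.8% of Erc1, and 2.1% of the 50-base words of Cplx2 occur in another gene. The median coefficient of variation was 7.06% among controls and 7.56% among mutants, beside 6.83% and 7.72% over 11898 genes in the same range of CPM.

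**Figure D4:**
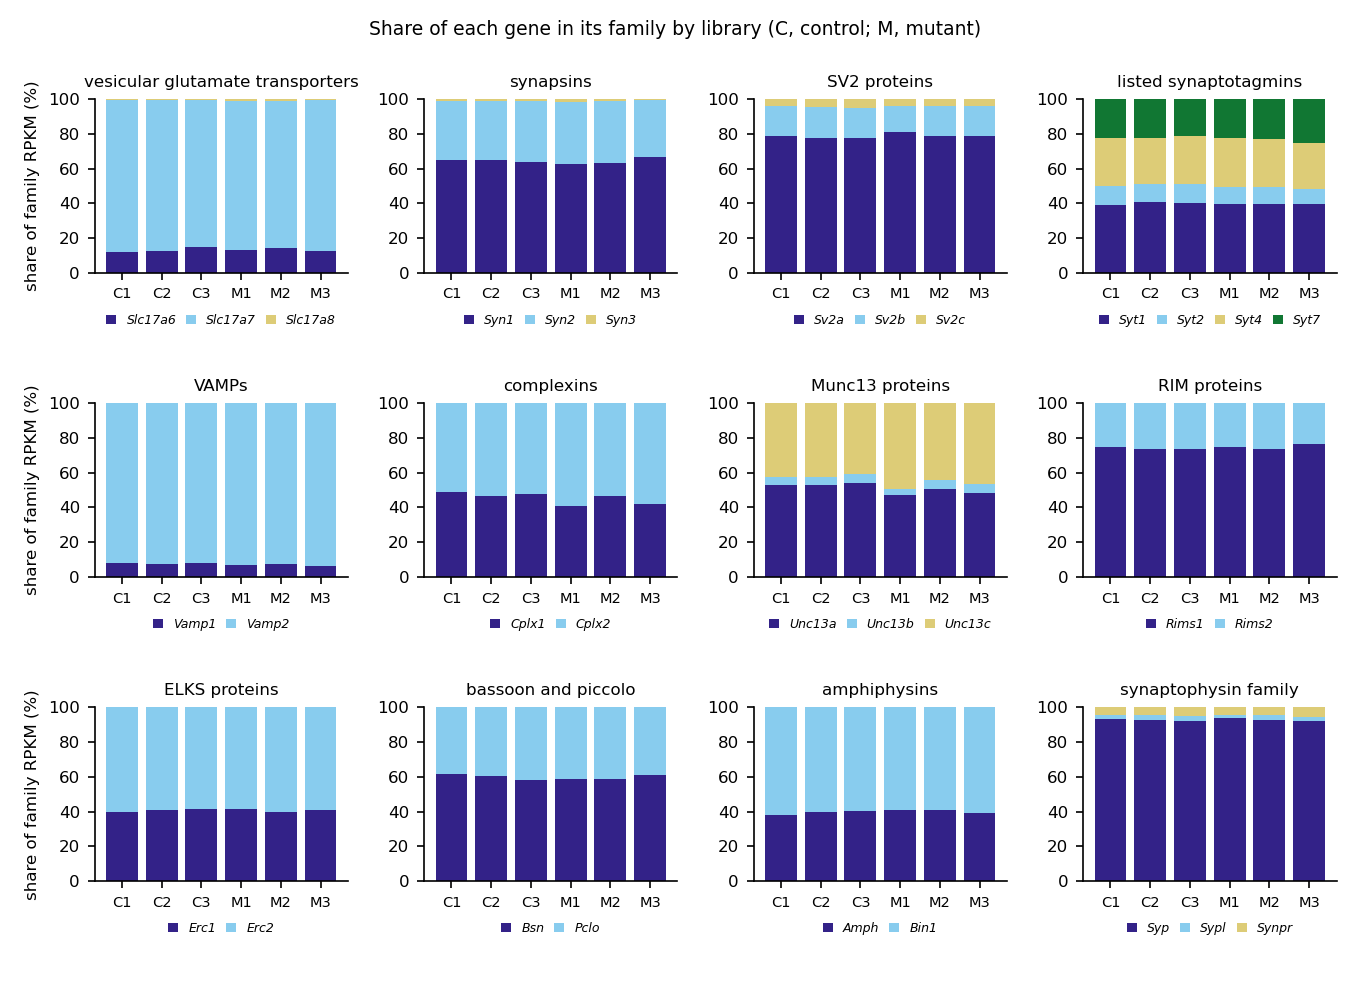
Share of the summed RPKM of its family (y axis, percent) that each paralog took in each library, control and mutant. Unc13c took 40.7 to 42.7% of the Munc13 sum in controls and 44.4 to 49.4% in mutants, and the VGLUT shares overlapped between genotypes.

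The 38 genes summed to 12474.5 to 13367.9 CPM in the controls and 12445.3 to 13506.3 CPM in the mutants. Mutants 2 and 3 had medians of -0.05 and -0.05 (log2 ratio to the control mean over the 38 genes) and mutant 1 of 0.04, while the controls lay at 0.02, 0.00 and -0.02. Mutant 1 was the highest of the 6 libraries for 12 of the 38 genes and mutant 3 the lowest for 12. Compared with the mean of the other 2 mutants, mutant 1 was more than 1.2 times higher for 7 genes, from 1.27 times for Sv2c, Syt2 and Syt4 over 1.29 for Syp, 1.32 for Slc17a8 and 1.37 for Sv2a to 1.87 for Syn3. It was lower by more than that factor for Snap25 (0.83 times) and Unc13b (0.787 times). What sets mutant 1 apart in these genes was not tested.

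A wider list held 81 other presynaptic genes. Of the 80 that could be tested, 0 passed an adjusted p of 0.05 with edgeR. At an unadjusted p under 0.05 there were 3 higher and 1 lower, or 3.75% and 1.25%, beside 4.09% and 2.41% of all tested genes. There were 40 positive and 40 negative estimates, or 50% negative beside 52.4% of all tested genes. The smallest p belonged to Rab27b, a GTPase of vesicle and dense core granule traffic, at 20.8, 20.7 and 18.8 CPM in controls and 27.3, 27.2 and 23.4 CPM in mutants (log2 fold change 0.37 ± 0.10 SE, edgeR adjusted p = 0.171).

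Markers of other cells were counted in the same libraries. Of 10 genes of myelinating oligodendrocytes 4 fell at an adjusted p of 0.05 (edgeR), among them Mal (log2 fold change -0.53, adjusted p = 0.0241), Mog (-0.49, adjusted p = 0.0351) and Ugt8a (-0.49, adjusted p = 0.0395). All 10 estimates were negative with a median of -0.47, and the summed level was 22275 to 26622 CPM in controls and 17571 to 20436 CPM in mutants. The 10 neuron markers had a median of 0.03 and summed to 4739 to 5234 CPM in controls and 4612 to 5188 CPM in mutants. Nefm, a neurofilament gene, had the smallest p of these (log2 fold change -0.47 ± 0.13 SE, edgeR adjusted p = 0.186). Medians for the regional neuron lists were -0.03 for cerebellar granule cells, -0.03 for cortical excitatory neurons, 0.08 for thalamus and midbrain and 0.04 for inhibitory neurons, with 0 genes past an adjusted p of 0.05 in each. The genes with the smallest p there were Cbln3 (0.15), Camk2a (0.19), Barhl2 (-0.21) and Gad2 (0.21), with edgeR adjusted p from 0.573 to 0.866. Other genes of each list went the other way. In the same order, positive and negative estimates numbered 2 and 5, 3 and 4, 4 and 3, and 4 and 2. Medians were -0.11 for oligodendrocyte progenitors, 0.07 for astrocytes, 0.04 for microglia and -0.10 for vessels, also with 0 genes called. The genes with the smallest p were Sox10 (-0.29), Aldh1l1 (0.26), Csf1r (0.15) and Cdh5 (-0.14), with edgeR adjusted p from 0.21 to 0.897. Here too, signs within each list were mixed. Positive and negative estimates numbered 1 and 5 for progenitors, 5 and 3 for astrocytes, 6 and 2 for microglia, and 1 and 6 for vessels. The progenitor list was mixed, with Pdgfra (0.01) and Cspg4 (-0.02) near 0 and Olig1 (-0.07), Olig2 (-0.15) and Gpr17 (-0.22) negative beside Sox10. The part of these lists in the values of the 38 genes was not tested.

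**Figure D5:**
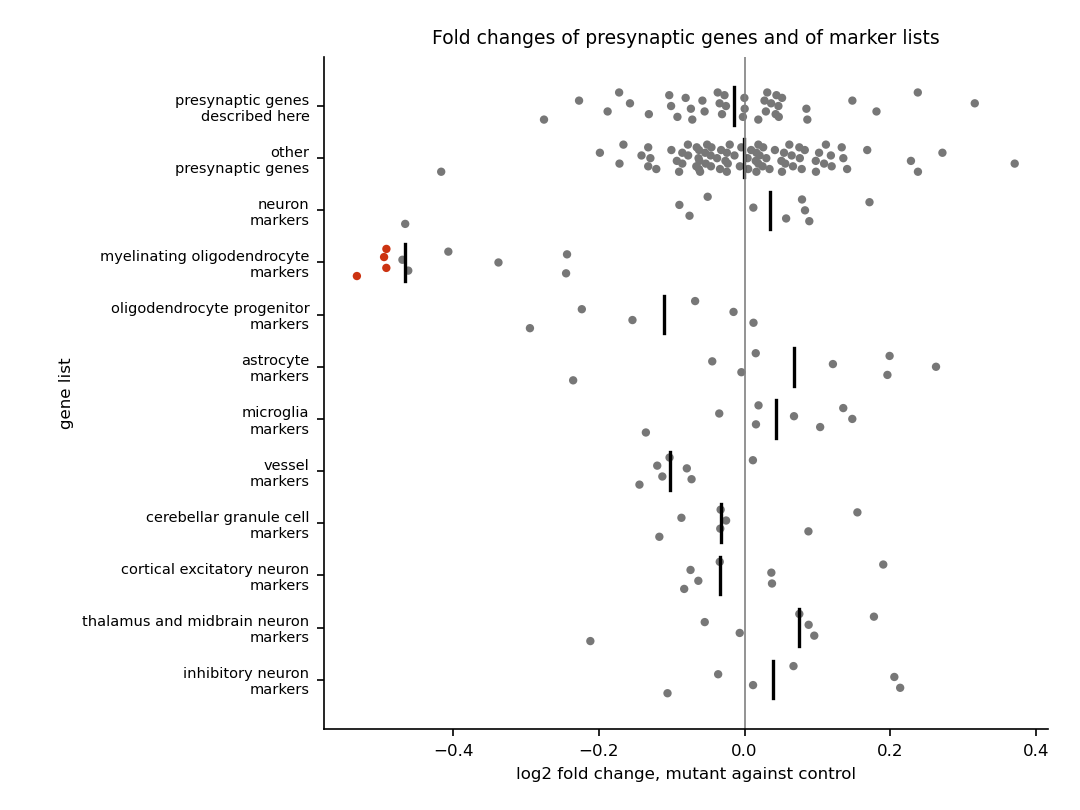
Log2 fold change of mutant over control (x axis) of each gene in the 38 presynaptic genes, the other presynaptic genes and the marker lists (rows), with the median of each list. The presynaptic and neuron lists center on 0, and the myelinating oligodendrocyte genes all lie to the left of it.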

How the data were processed

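PolyA RNA-seq libraries of 6 whole brains (3 control, 3 mutant) were sequenced as single reads. Per the labels and the study's methods, the authors trimmed reads (Trim Galore 0.5.0), removed abundant sequences (Bowtie2 2.3.4.1), aligned to GRCm38 with STAR and counted reads per gene with featureCounts (Subread 1.6.2). The strand setting was not given in the sources used here. Reads from overlapping antisense exons therefore cannot be told apart. The deposited tables hold unnormalized counts for each gene, and 54495 of their 54532 identifiers matched GENCODE M21.

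Counts were tested with edgeR 4.0.16 in R 4.3.3 (filterByExpr, TMM, quasi-likelihood F test on genotype), with p-values adjusted by Benjamini-Hochberg over 16731 genes and 95% intervals from the F statistic. CPM used effective library sizes, and RPKM used the exonic bases of all transcripts of a gene. Alternatives were DESeq2 1.42.0, limma-voom 3.58.1, other size factors and filters, protein-coding genes only, a GC correction, a replicate block and each library left out. The members and the lists were chosen with earlier results of these data known. Values in every library were given for the 6 genes with the smallest p, the 3 largest and 3 smallest fold changes, and 10 well-known genes chosen by role. Bsn and Rph3a were added to these after their values were seen, and the remaining genes were given by their mean or log2 fold change and by counts. Of each other list up to 3 called genes, or else the gene with the smallest p, were named. For oligodendrocyte progenitors the rest of the list was added after its values were seen. The paper describes 3 control and 3 mutant brains, so the p-values set the genotype difference against variation between brains. The edgeR fit estimates that variation with information shared across genes.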

Additional observations from a re-analysis of the deposited data

How the results depend on the processing

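The count of the 38 genes past an adjusted p of 0.05 stayed at 0 higher and 0 lower in edgeR, DESeq2, limma-voom and every alternative that kept all libraries, also with a 2-fold limit. With each library left out in turn it was 0 to 0 higher and 0 to 1 lower, the 1 being Sv2c without mutant 1. At an unadjusted p under 0.05 the left-out libraries gave 1 to 3 higher genes and 0 to 5 lower genes (5 without mutant 1, 0 without mutant 3). No filter on low counts gave 4 lower genes in place of 2, and the GC correction gave 3, with or without the replicate block. The share of all tested genes at this unadjusted p was taken only from the main fit. These counts therefore have no matching background and cannot be read as a result about the 38 genes. The median log2 fold change of the 38 moved from -0.01 to -0.04 with the GC correction (-0.0364), and to between -0.0579 and 0.0012 with a library left out. The cause was not tested. Over all tested genes 105 passed the adjusted p, beside 242 with no filter and 66 to 162 with a library left out.

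The paper describes the control and mutant brains as littermates, and the labels do not name litters. Correlations of same-numbered deviations were 0.104, -0.047 and 0.08, so no shared deviation by replicate number was visible. These values cannot show whether same-numbered brains were littermates. The replicate block left 0 of the 38 past the adjusted p and moved the count over all genes to 124. With the block and the GC correction together the median of the 38 was -0.0362.

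With all libraries kept, signs turned for 4 genes with estimates near 0. Syt4 (0.0001) became -0.003 with DESeq2, -0.0081 with limma-voom, -0.0019 with no filter, -0.0083 with the replicate block, -0.0443 with the GC correction and -0.0555 with both. Syn3 became -0.0488 with limma-voom, -0.0105 with the block and -0.0234 with block and GC correction. Sv2a became 0.0001 with DESeq2-type size factors, 0.0002 with a minimum of 1 CPM and 0.0038 over protein-coding genes, and Synj1 became 0.0018, 0.0021 and 0.0061.

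With libraries left out, the log2 fold changes that changed sign ran from -0.1726 to 0.0796 for Sv2a, -0.1257 to 0.0845 for Syt4, -0.1698 to 0.0151 for Cplx1, -0.0375 to 0.0865 for Unc13a, -0.0422 to 0.1406 for Unc13b, -0.0577 to 0.1303 for Bsn, -0.0668 to 0.1427 for Pclo, -0.0348 to 0.0899 for Erc1, -0.0616 to 0.0083 for Amph and -0.0992 to 0.2655 for Slc17a8. They ran from -0.0299 to 0.0154 for Synj1, -0.3339 to 0.2427 for Syn3, -0.0817 to 0.0434 for Synpr, -0.1127 to 0.0262 for Syt1, -0.1132 to 0.0584 for Slc17a6, -0.0244 to 0.1184 for Stx1a, -0.0239 to 0.1258 for Vamp2, -0.1356 to 0.0025 for Slc17a7 and -0.2051 to 0.0397 for Syp. With 3 brains per genotype, the 95% intervals reached up to 0.41 log2 units on each side. An interval clear of 0 did not suffice for the adjusted p. Unc13c, at 0.32 with an interval of 0.14 to 0.50, was not called (edgeR adjusted p = 0.156). Small changes could therefore be missed in the lowest genes and also in genes with more reads.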
